A study of Mus musculus with 22 samples.

Results

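The genes described here are a set of growth regulators best known from the embryo and from tumours: Hmga2, Igf2bp1, Igf2bp3, Lin28b, Igf2, H19, Igf1r and Dlk1. All probe sets annotated to these symbols were taken, which gave 25 of the 45037 probe sets analysed. They stand for 8 genes. The list also named Hmga1 and Igf2bp2, for which no probe set was listed, so these genes were not analysed here. Hmga2 had 4 probe sets, Igf2bp1 4, Igf2bp3 6, Igf1r 5, Igf2 2, Dlk1 2 and Lin28b 1. The last probe set, 1448194_a_at, is annotated to both Mir675 and H19, since the microRNA lies inside the H19 transcript, and its signal cannot be given to H19 alone.

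Expression was measured on 22 Affymetrix mouse arrays. A2C12 is a lung tumour cell line established from a double transgenic mouse that carried c-myc and c-raf in a C57BL/6 background. Its side population (SP), the viable cells that exclude the DNA dye Hoechst, was sorted by flow cytometry. The untreated group holds 3 arrays of these SP cells. The antibody group holds 3 arrays of SP cells from cultures given a monoclonal antibody to mouse EpCAM at 100 µg/ml for 48 h before the sort. Lung of non-transgenic C57BL/6 mice was measured on 16 arrays, 8 labelled male and 8 labelled female, and these were pooled as 1 lung group. No age of the mice and no promoter of the transgenes is given in the sources used here. The labels call the samples biological replicates, but all cells are of 1 line, so the p-values measure the spread between preparations of that line and not between tumours. Unsorted A2C12 cells were not measured, so nothing here separates the SP cells from the rest of the line.

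LIN28 proteins bind the precursors of the let-7 microRNAs and block their maturation. Mature let-7 represses mRNAs that carry matches to its seed, the run of bases near its 5′ end, and Hmga2, Lin28b, Igf2bp1, Igf2bp3 and Igf1r are among its known target genes. HMGA2 is a chromatin protein that bends AT-rich DNA. The IGF2BP proteins bind mRNAs, Igf2 mRNA among them, and affect their stability and translation. IGF2 is a fetal growth factor that signals through the receptor IGF1R. Igf2 and H19 are imprinted neighbours expressed from opposite parental alleles, and Dlk1, which encodes a membrane protein of the Notch ligand family, is an imprinted gene of another cluster that also holds Meg3.

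The arrays did not measure mature let-7. Because so many of the members are let-7 targets, 3 mature let-7 sequences from the RefSeq table of mouse build GRCm38.p6 are shown with the seed, bases 2 to 8, in capitals. The 9 names of let-7 and miR-98 in that table all share this seed.
mmu-let-7a-5p: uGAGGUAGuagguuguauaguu
mmu-let-7d-5p: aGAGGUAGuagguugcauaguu
mmu-let-7g-5p: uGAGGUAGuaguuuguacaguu

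RefSeq promoters, 250 bases before to 50 after the annotated start, were present in the same table for 6 of the measured member genes. The 3 shown are examples: Hmga2 and Igf2bp3 were higher in the cells on nearly all of their probe sets, and Lin28b was lower. Igf2bp1 has no entry in the table. Capitals mark matches, on either strand, to CACGTG, the E box that MYC can bind, or to GGGCGG, the GC box that SP1 can bind. TATAAA, the TATA box, was also searched, and the matches shown do not overlap each other.
Hmga2, chr10:120476420-120476719, minus strand: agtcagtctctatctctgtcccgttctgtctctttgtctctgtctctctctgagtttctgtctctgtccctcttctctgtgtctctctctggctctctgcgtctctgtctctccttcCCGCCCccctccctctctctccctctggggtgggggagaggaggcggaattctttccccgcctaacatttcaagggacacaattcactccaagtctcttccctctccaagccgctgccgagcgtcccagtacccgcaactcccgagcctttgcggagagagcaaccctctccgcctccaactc
Igf2bp3, chr6:49214905-49215204, minus strand: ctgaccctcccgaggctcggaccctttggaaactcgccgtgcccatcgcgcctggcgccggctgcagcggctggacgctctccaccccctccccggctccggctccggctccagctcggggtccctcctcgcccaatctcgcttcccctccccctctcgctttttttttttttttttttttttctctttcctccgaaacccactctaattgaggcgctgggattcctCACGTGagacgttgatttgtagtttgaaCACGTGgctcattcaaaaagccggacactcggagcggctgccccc
Lin28b, chr10:45470152-45470451, minus strand: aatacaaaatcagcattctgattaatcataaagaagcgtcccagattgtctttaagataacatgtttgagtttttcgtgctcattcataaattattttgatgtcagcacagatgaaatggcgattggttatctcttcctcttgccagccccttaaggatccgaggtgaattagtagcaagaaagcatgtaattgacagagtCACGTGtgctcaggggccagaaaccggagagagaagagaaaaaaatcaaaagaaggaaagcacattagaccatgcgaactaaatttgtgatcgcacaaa
The Hmga2 window holds 1 GC box, the Igf2bp3 window 2 E boxes and the Lin28b window 1 E box. No E box was found in any window of Dlk1, Igf1r or Igf2, the other measured members with an entry. Among all 32851 promoters of the table, 7.15% hold CACGTG, 35.7% hold GGGCGG and 13.6% hold TATAAA. The GC content of the windows was 57.7% for Hmga2, 60.3% for Igf2bp3 and 39% for Lin28b, against a median of 52.7% over all promoters. A match is only a run of letters, and binding was not measured.

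The lung arrays labelled male 3, male 4 and female 1 stood apart from the other 13. Counts of members and lists, and changes of Lin28b, Igf2, Dlk1 and an Igf2bp3 set, are given with and without them. Other results, such as correlations within lung, are mostly given with them only. On male 3 and male 4 the sex transcripts went against the labels, with Xist intensities of 1512 and 1583 (12.7 to 24.0 on the remaining 6 male ones) and Uty at 8.27 and 9.46 (722 to 1253 on the others). The summed intensity of alveolar type 2 cell markers was 44250 to 48060 on the 3 arrays and 32840 to 41490 on the others. On several other sums male 3 and male 4 lay outside those 13 arrays and female 1 inside. Their endothelial sums were 16600 and 12430 (18900 to 24230 on the 13, 21810 on female 1). Fibroblast and smooth muscle sums were 18790 and 17370 (19920 to 26990, and 22080). Proliferation sums were 731.6 and 939.9 (199.8 to 663.7, and 289.5). Leukocyte sums were 14000 and 14040 (9652 to 13650, and 13140). Mesothelial sums were 413 and 361.9 (519.3 to 1314, and 609.8). Between the cells and lung, the sums of club cell markers (9.43 to 48.3 against 36600 to 50440) and of endothelial markers (33.8 to 54.5 against 12430 to 24230) did not overlap, and all 5 club cell and all 6 endothelial markers were lower. The sum over 8 fibroblast and smooth muscle markers was 11580 to 14970 in the cells and 17370 to 26990 in lung. These 8 did not all go the same way: in untreated cells 4 were lower and 1 higher. The sum over 4 proliferation markers was 4943 to 11590 in the cells and 199.8 to 939.9 in lung, and the part of any of these in the results was not tested. The spiked labelling control dap differed too, with intensities of 438.3 to 761.5 for the cells but no more than 3.704 for lung. For Gapdh the 3′ probe set exceeded the 5′ one by -0.13 to 0.40 on the log2 scale in the cells and by 0.22 to 1.02 in lung. For Actb the excess was 0.225 to 1.212 in the cells, a range that spans the 0.279 to 0.903 of lung. Array processing and cell source therefore cannot be told apart in any comparison of cells with lung. Lung is a mixture of cell types, and in such tissue fewer cells of a type and less RNA per cell cannot be told apart.

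Each member probe set was compared between cells and lung as log2(intensity + 16) after quantile normalization, with limma. A probe set was called when its Benjamini-Hochberg adjusted p over all tested probe sets was at most 0.05 and the change was at least 2-fold. Of the 21 member probe sets tested in untreated cells against lung, 12 were higher, 2 were lower and 7 were not called. Over all 32533 probe sets tested, 20.1% were higher and 19.6% lower, 39.8% in all. The member probe sets thus had 57.1% higher and 9.52% lower, with a median log2 change of 1.99 against 0.15 over all probe sets. The 12 higher sets came from 4 of the 8 genes tested: 3 from Hmga2, 3 from Igf2bp1, 5 from Igf2bp3 and 1 from Igf2. Sets of the same gene are not independent, so these are shares of probe sets and not of genes. In antibody-treated cells, 13 of 20 tested members were higher (65%) and 2 lower (10%), against 19.8% higher and 19.6% lower (39.3% in all) of the 32422 tested, and the median log2 change was 2.34 against 0.13. The higher sets of treated cells came from 5 of 7 genes tested, these 4 and Igf1r, which was lower on another set. With 1 probe set per gene, 4 members were higher and 2 lower in treated cells. Without the 3 lung arrays that stood apart, 13 member sets were higher and 2 lower in each comparison. The 2 comparisons share the lung arrays. On the normalized scale the untreated and lung arrays did not overlap for 15 of the 21 sets, 13 higher and 2 lower, against 35.4% and 28.3% of all sets. For treated cells this held for 13 higher and 3 lower of 20, against 33.2% and 27.8%. Where every lung array lay below the 40th percentile, a set was tested only if all 3 cell arrays lay above it. Its lack of overlap was then fixed by the filter. This covers the tested Hmga2 sets, Igf2bp1 1455223_at and 1459825_x_at, and Igf2bp3 1422610_s_at, 1422611_s_at, 1450687_at and 1453957_a_at. In untreated cells it also covers the Mir675 and H19 set, whose intensities did overlap (lowest untreated 25.4, highest lung 30.8). Of the called probe sets 50.6% were higher in untreated cells, which became 40.3% with no normalization and 55.2% with median centring. The median of all probe sets moved to -0.04 and 0.23 under these settings, and no called member changed direction.

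**Figure D1:**
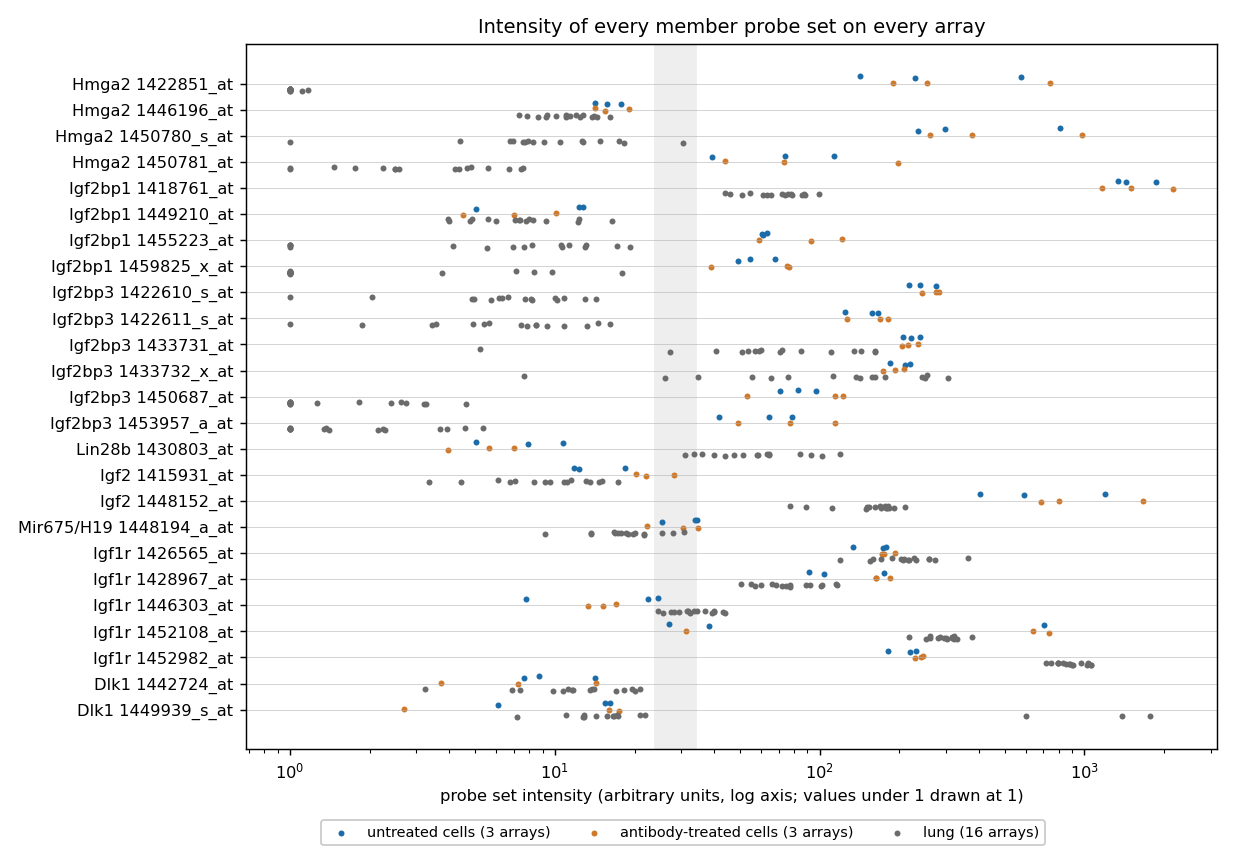
Intensity of the 25 member probe sets on every array, on a log axis in arbitrary units, with values under 1 drawn at 1, blue points for the 3 untreated arrays, orange for the 3 antibody-treated arrays and grey for the 16 lung arrays. The grey band spans the 40th percentile of intensity on the 22 arrays, 24.55 to 33.75, and the Hmga2 sets other than 1446196_at lie right of it in the cells and left of or in it in lung, while Lin28b lies left of it in the cells.

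Hmga2 was higher in both cell groups on all 3 of its tested probe sets, and its lung values were near the floor of the array. Probe set 1422851_at read 576, 229 and 142 on the untreated arrays and 255, 744 and 189 on the antibody arrays. In lung the lowest, median and highest values were 0.00293, 0.00688 and 1.17. The cell and lung groups did not overlap, and every cell array lay over 100 while every lung array lay below the 40th percentile of its array. The log2 change against lung was 4.25 ± 0.24 (SE, adjusted p = 2.21e-14) in untreated cells and 4.53 ± 0.24 (adjusted p = 5.94e-15) in antibody-treated cells. Means were 315 ± 230 (SD, n = 3), 396 ± 303 (SD, n = 3) and 0.237 ± 0.429 (SD, n = 16). On 1450780_s_at the cells read 234 to 810 untreated and 260 to 980 treated, against 0.794 to 30.4 in lung, a log2 change of 4.05 ± 0.28 (adjusted p = 1.15e-12) and 4.29 ± 0.28 (adjusted p = 3.66e-13). Here too the cell and lung arrays did not overlap. On 1450781_at the changes were 2.38 and 2.64 (adjusted p = 4.89e-10 and 6.92e-11). The fourth, 1446196_at, was too dim to test, at 14.2 to 19.1 in the cells and 7.32 to 16.2 in lung.

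Because its lung values lie near 0, the size of the Hmga2 fold depends on the offset: the log2 change of 1422851_at in untreated cells was 7.97 with an offset of 1 and 2.49 with 64. The call did not depend on it. Within the cells the gene varied in a way all 3 tested probe sets shared: each was highest on untreated 1 and antibody 2, and the correlation between them over the 6 arrays was 0.957 to 0.993, as a description. The proliferation marker sum on those 2 arrays was 7832 and 4943, the latter the lowest of the 6, and its part in the Hmga2 values was not tested. The log2 excess of 3′ over 5′ Gapdh on them was -0.12 and 0.40, the latter the highest of the 6, and its part was not tested either.

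**Figure D2:**
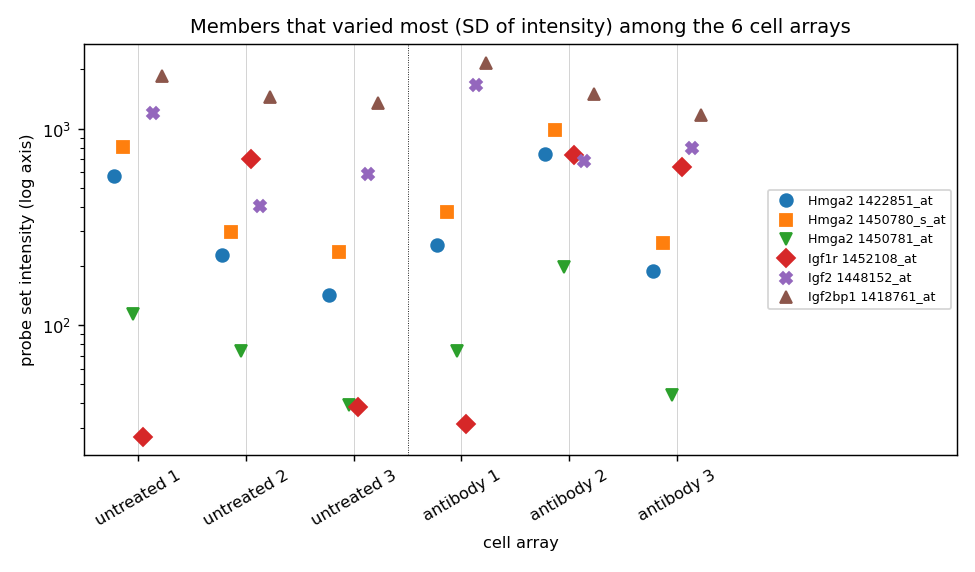
Intensity on each of the 6 cell arrays for the 6 member probe sets with the largest SD of intensity there, on 1 log axis in arbitrary units. Levels of different probe sets are not comparable with each other. Hmga2 is highest on untreated 1 and antibody 2, and Igf1r 1452108_at divides the arrays into 3 low (27.1 to 38.2) and 3 high (641 to 737) within both groups.

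Igf2bp1 was higher in cells on all 3 of its tested probe sets, and on 1 of them every lung array, too, lay above the 40th percentile. 1418761_at read 1860, 1441 and 1344 untreated and 2166, 1494 and 1167 with antibody, against a lung range of 43.9 to 99.9 with a median of 73.1. The lowest cell array lay far above the highest lung array. Means were 1548 ± 274 (SD, n = 3), 1609 ± 509 (SD, n = 3) and 70.3 ± 16.3 (SD, n = 16). The log2 change was 4.22 ± 0.18 (adjusted p = 4.33e-17) and 4.27 ± 0.18 (adjusted p = 3.5e-17). 1455223_at gave 1.99 and 2.39 and 1459825_x_at gave 2.20 and 2.28. In lung those 2 sets read at most 19.3 and 18.0, below the 40th percentile, and the changes of untreated cells fell under 2-fold with an offset of 64 (0.97 and 1.00). 1449210_at was not tested.

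Igf2bp3 was higher on 5 of 6 probe sets in each cell group. 1422610_s_at read 276, 218 and 239 untreated and 284, 243 and 274 treated, and 0.00963, 7.18 and 14.4 as the lowest, median and highest of lung. The 6 cell arrays lay close together, the log2 changes being 3.65 ± 0.14 (adjusted p = 4.35e-18) and 3.77 ± 0.14 (adjusted p = 2.31e-18). The other 3 called sets besides 1433731_at had changes of 2.34 to 3.05 untreated and 2.60 to 3.10 treated. 1433731_at gave 1.71 ± 0.39 and 1.69 ± 0.39 (adjusted p = 0.000322 and 0.000367), with lung spread from 5.21 to 163. 1433732_x_at was the exception: the cells read 173 to 219 inside a lung range of 7.68 to 305, and its changes of 1.04 and 0.96 were not called (adjusted p = 0.0858 and 0.115). It passed the threshold when the 3 lung arrays that stood apart were left out, in untreated cells (1.20, adjusted p = 0.0449) and not in treated ones (1.11, adjusted p = 0.0617).

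**Figure D3:**
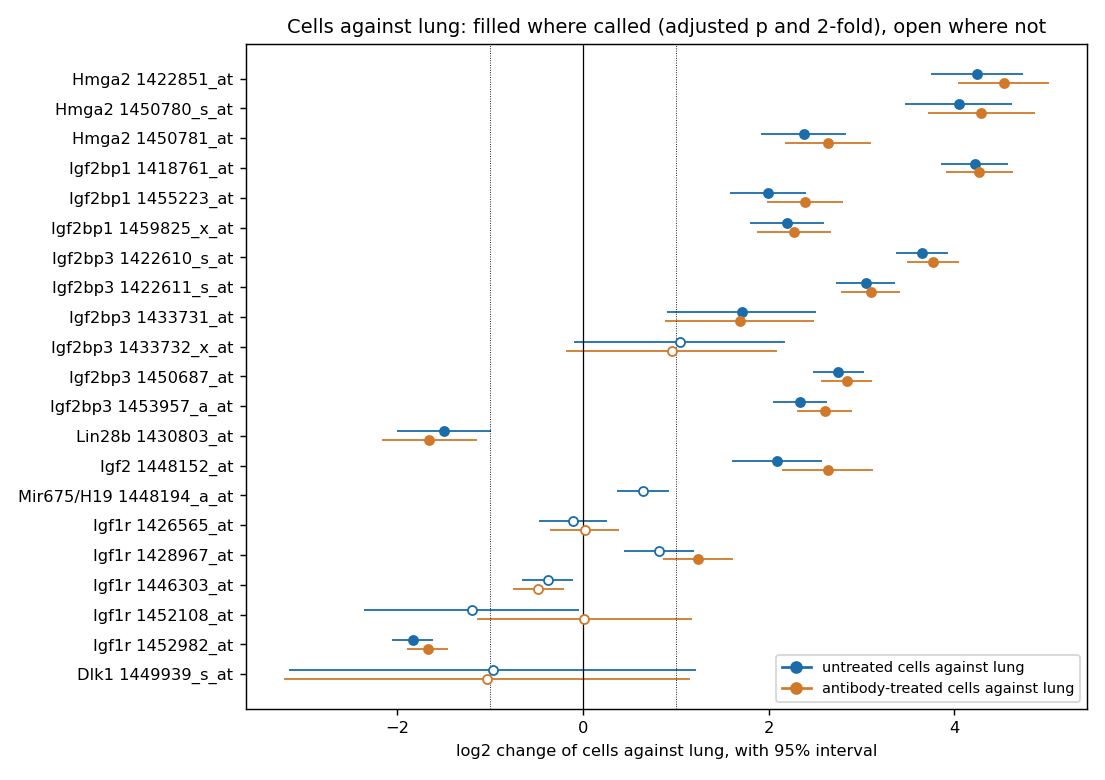
Log2 change against lung of each tested member probe set, with 95% confidence intervals from the fit, for untreated cells and antibody-treated cells. Hmga2, Igf2bp1, Igf2bp3 and Igf2 lie right of 0, Lin28b and Igf1r 1452982_at left of it, and the interval of Dlk1 runs from -3.16 to 1.22 in untreated cells.

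Lin28b differed in the other direction and was lower in both cell groups. Its probe set 1430803_at read 10.8, 5.02 and 7.93 untreated and 3.94, 7.00 and 5.66 treated, against 31.0 to 119 in lung with a median of 58.3. No cell array reached the lowest lung array. The log2 change was -1.50 ± 0.25 (adjusted p = 5.68e-06) in untreated cells and -1.66 ± 0.25 (adjusted p = 1.29e-06) in treated cells. All cell values lay below the 40th percentile of their arrays, so its level there is no more than that of the dim probe sets. With an offset of 64 the changes were -0.72 and -0.78 and no longer 2-fold. The highest lung values were on male 4 (119) and male 3 (102), and without the 3 arrays that stood apart the changes were -1.34 and -1.50. Its paralogue Lin28a, one of 14 genes of a list of LIN28 and let-7 processing genes, was called higher in untreated cells on 1421749_at, but this set was dim: it read 26.0, 43.8 and 30.3, where the 40th percentile lay at 24.9 to 25.8, against 0.0151 to 28.5 in lung. In treated cells it read 24.4 to 28.0 and did not pass the filter, so it was not tested against lung. Of that list 4 of 14 tested genes were higher and 2 lower in untreated cells, against 17.8% higher and 23.7% lower over all genes, and 4 and 2 of 13 in treated cells, against 17.2% and 23.9%. Tarbp2, which encodes a Dicer partner, was higher by 1.86, Hnrnpa1, a splicing factor that also acts on microRNA precursors, by 1.75, and Trim71, a let-7 target and RNA-binding protein, changed by -1.57.

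Igf2 was higher in both cell groups on 1448152_at. It read 1197, 404 and 590 untreated and 1663, 684 and 800 treated, against 77.0 to 209 in lung with a median of 170. The groups did not overlap, and the lung values all lay above the 40th percentile. The log2 change was 2.09 ± 0.24 (adjusted p = 1.42e-08) and 2.64 ± 0.24 (adjusted p = 2.14e-10). The lowest lung values, 77.0 and 88.6, were on male 4 and male 3, and without the 3 arrays the changes were 1.98 and 2.53. The probe set of Mir675 and H19 read 34.4, 33.9 and 25.4 untreated, 30.5, 34.7 and 22.2 treated and 9.16 to 30.8 in lung, dim throughout. Its log2 change was 0.65 ± 0.14 in untreated cells (adjusted p = 0.000114) and under 2-fold, so it was not called, and it was not tested in treated cells against lung.

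The probe sets of Igf1r, the receptor of IGF1 and IGF2, disagreed. 1452982_at was lower in cells, at 232, 220 and 181 untreated and 245, 229 and 241 treated, against 718 to 1060 in lung (log2 change -1.84 ± 0.11, adjusted p = 4.05e-14, and -1.68 ± 0.11, adjusted p = 2.5e-13). 1428967_at was higher in treated cells, by 1.24 ± 0.18 (adjusted p = 1.12e-06), and its 0.82 ± 0.18 in untreated cells (adjusted p = 0.000264) was under 2-fold and not called. 1426565_at changed by -0.11 and 0.02 (adjusted p = 0.564 and 0.937). 1446303_at changed by -0.38 and -0.48, under 2-fold. The probe sets are directed at parts of the transcript that are not given in the sources used here, and why they disagree was not tested. 1452108_at split the cell arrays within both groups: it read 27.1, 703 and 38.2 untreated and 31.2, 737 and 641 treated, against 218 to 376 in lung. Its changes against lung were -1.20 ± 0.56 (adjusted p = 0.0535) and 0.01 ± 0.56 (adjusted p = 0.983), and single arrays decided them: the untreated change was -2.45 and called without untreated 2, and the treated change was 1.26 and called without antibody 1 (adjusted p = 0.0259). With array weights the treated change was called in the other direction (-1.61, adjusted p = 0.00439).

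Dlk1 was not called in either comparison, and its lung mean rested on 3 arrays. On 1449939_s_at lung male 4 read 1769, male 3 read 1387 and female 1 read 601, and the other 13 lung arrays read 7.18 to 21.9. The cells read 16.2, 15.5 and 6.10 untreated and 2.69, 17.5 and 16 treated. Of these, 4 lay inside the range of those 13, and untreated 3 and antibody 1 lay below it. The log2 change was -0.97 ± 1.06 (adjusted p = 0.402) and -1.03 ± 1.06 (adjusted p = 0.375) with all lung arrays, and 0.02 and -0.04 without the 3. The other probe set, 1442724_at, was not tested. Meg3, the maternally expressed RNA gene of the same imprinted cluster, was named after its values were seen. Its set 1439380_x_at read 1649, 3109 and 923 on male 3, male 4 and female 1, and 140 to 295 on the other lung arrays. All 3 arrays lay above the other 13 on 5 of the 11 Meg3 probe sets. On others they did not, as on 1429257_at, with 104, 104 and 99.1 against 70.9 to 151. On the same 3 arrays Cbln1, a secreted synaptic protein gene, read 1998, 3916 and 738 (7.00 to 17.4 on the others), and Gkn2, a gastrokine gene, read 5223, 10458 and 3022 (24.7 to 46.8 on the others). Why these arrays stand apart was not tested.

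**Figure D4:**
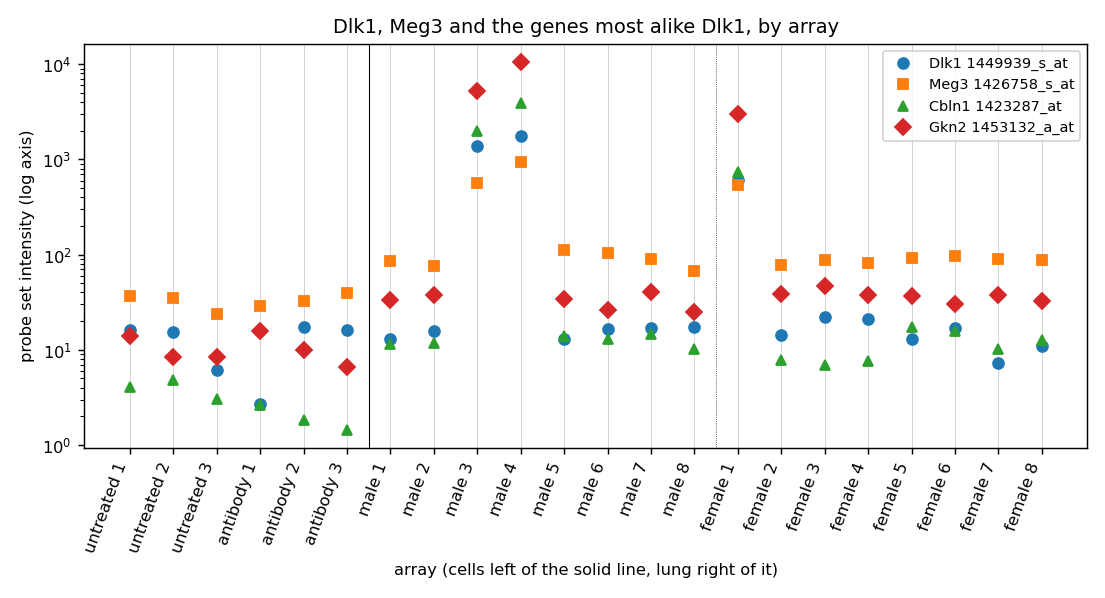
Intensity of Dlk1 1449939_s_at, Meg3 1426758_s_at, Cbln1 1423287_at and Gkn2 1453132_a_at on each of the 22 arrays, on a log axis in arbitrary units. Dlk1 lies between 601 and 1769 on lung male 3, male 4 and female 1 and at most at 21.9 elsewhere, and the other 3 genes are highest on the same arrays.

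Antibody-treated and untreated cells were compared on the 6 cell arrays alone, without a fold requirement. Of 18 member probe sets tested, 0 were called by limma (all adjusted p = 1), and 0 had an unadjusted p under 0.05. Over all 27499 tested probe sets 331 had an unadjusted p under 0.05, fewer than the 1375 expected if none changed. The 0 of 18 therefore does not set the members apart. Among all 27499 probe sets tested 3 were called, 0.0109% (0.00364% higher and 0.00727% lower), and leaving out 1 cell array at a time gave 3 to 11, the most without untreated 2. For 13 of the 18 sets the 95% interval stayed inside 2-fold in either direction. The other 5, the 3 of Hmga2, 1448152_at of Igf2 and 1452108_at of Igf1r, leave room for a change beyond 2-fold: the interval of Igf2 ran from -0.35 to 1.44 around 0.55, and that of Igf1r 1452108_at from -1.56 to 3.99 around 1.22. Changes were positive for 15 of 18, but these sets came from 6 genes, and sets of the same gene are not independent. The share positive over all probe sets was not counted, and their median change was -0.01. Leaving out single arrays reversed the sign of some, the 3 Hmga2 sets among them. On the normalized scale the groups of 1 set, Igf1r 1452982_at, did not overlap (log2 change 0.16). Its intensities did overlap, at 181 to 232 untreated and 229 to 245 treated. Of all tested sets, 1.57% did not overlap with the antibody group higher and 2.26% with it lower.

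Other genes of these pathways were counted by list, with members left out and each gene represented by its probe set of highest mean, and the counts are given for untreated cells unless said. The backgrounds are the 17.8% of genes higher and 23.7% lower given above. The list genes named had adjusted p of at most 1.14e-05 in untreated cells against lung, with SEs of 0.10 to 0.59. Among IGF receptor signalling genes, 1 of 24 was higher and 10 lower, with a median log2 change of -0.80 against 0.01 over all genes. Foxo1, the transcription factor restrained by AKT, changed by -2.48 and was lower on all 3 of its sets, and Pik3r3, a regulatory subunit of PI3-kinase, by -2.90. Grb10, an imprinted adaptor that binds IGF1R, changed by -4.64 on the set used, but only 1 of its 3 tested sets was lower. Pik3cd, a catalytic subunit, was higher by 3.72 while its other set was lower.

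Among IGF binding proteins and their proteases, 4 of 12 were higher and 5 lower, with a median of 0.49. Igfbp2 changed by -2.95 (-2.44 in treated cells), Igfbp3 by -2.37 and Igfbp5 by -4.62, the last on 1 of 2 sets. Stc2, a secreted inhibitor of the protease that cleaves IGF binding proteins, was higher by 2.44 on the set used and by 2.32 to 2.68 over its 3 sets. Of the other IGF ligands and receptors 0 of 5 were higher and 1 lower in untreated cells, and 0 and 0 in treated cells. That gene, Igf1, changed by -1.17, and another of its 4 sets was higher by 1.38, so it has no agreed direction.

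Imprinted genes other than the members were lower or not called: 0 of 26 were higher and 12 lower, with a median of -0.63 in untreated cells. Sgce, a sarcoglycan gene, read 1.96 to 26.3 in the cells against 711 to 1112 in lung, a log2 change of -5.17. Ndn, a growth suppressor, changed by -4.40 and was lower on all 7 of its sets, and Nnat, a small membrane protein, by -4.13. Among other oncofetal and fetal growth genes, 2 of 14 were higher and 6 lower. Gpc3, a glypican of the fetal liver and lung, changed by -4.69, and Tpbg, an oncofetal surface protein, by 3.50 on the set used and by 3.16 to 3.50 over its 3 sets. Ptn, a growth factor, was higher by 3.38 ± 0.59 (adjusted p = 1.14e-05). In treated cells its change was 1.52 ± 0.59 (adjusted p = 0.0214), with antibody 1 at 16.4, below every lung array (97.8 to 207), and the other 5 cell arrays at 1450 to 1786. Sox11, a transcription factor of the embryo, changed by -2.26 on the set used and was lower on 5 of 6 sets.

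Of let-7 target genes, 3 of 19 were higher and 4 lower in untreated cells, and 2 and 4 in treated cells. Myc was higher by 3.46, at 771 to 982 untreated and 30.6 to 120 in lung; the line carries a c-myc transgene, and whether this probe set reads it was not tested. E2f2 and E2f5, cell cycle transcription factors, changed by -2.04 and -1.59 on 1 of 2 and 1 of 3 sets, and Arid3b, a DNA-binding protein, by -1.71. Among mRNAs bound by IGF2BP proteins 3 of 14 were higher and 1 lower, with Mki67, a proliferation marker, higher by 3.28, Ptgs2, a prostaglandin synthase, higher by 2.98, and Btrc, a ubiquitin ligase subunit, changed by -1.20 on 1 of 3 sets. Among HMG proteins other than the members 3 of 7 were higher and 1 lower, with Hmgb2 higher by 2.00 on the set used and by 1.35 to 2.00 over its 3 sets, Hmgb3 by 1.64 and Hmgn3 by 1.19, the last on 1 of 2 sets. Tox3, an HMG-box protein, changed by -3.76. In antibody-treated against untreated cells limma called 0 of 108 tested list genes, against 0% higher and 0.0157% lower of all genes. Of the 108, 2 had an unadjusted p under 0.05, against 331 of all 27499 probe sets. The list counts were unchanged without the 3 lung arrays.

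For 7 of the 8 genes, all but H19, whose probe set has 2 symbols, the genes whose log2 values followed most closely over the 22 arrays were sought among 27308 probe sets with 1 symbol. Such correlations mostly restate the gap between cells and lung, so they are given as descriptions, each with its value over the 16 lung arrays beside it. Hmga2 1450780_s_at was followed by Pvt1 at r = 0.989 (0.438 within lung) and by Slc7a1 at 0.988 (0.211). Igf2bp1 was followed by Eya4 at 0.994 (0.78) and Pax3 at 0.992 (0.428). Lin28b was followed by Hes7 at 0.979 and Ttll10 at 0.973, with 0.936 and 0.902 within lung. In lung, Lin28b, Hes7 and Ttll10 were all highest on male 3 and male 4. Igf2 was followed by Mras at 0.969 (0.862) and Mrps6 at 0.966 (0.913). Igf2, Mras and Mrps6 were all lowest in lung on male 3 and male 4. The part of male 3 and male 4 in the correlations of Lin28b and Igf2 was not tested. Igf1r 1452982_at was followed by Sorl1 at 0.993 (0.841) and Hipk1 at 0.991 (0.801). For Igf2bp3 the set of highest mean was 1433732_x_at, the one not called, and its closest genes were Tmem61 at 0.815 (0.80) and Exosc4 at 0.805 (0.794). Dlk1 was followed by Cbln1 at 0.985 and Gkn2 at 0.978, which were 0.993 and 0.995 within lung and rest on the same 3 arrays.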

How the data were processed

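The authors deposited 1 intensity per probe set and array on a linear scale, summarized with PLIER per the submitters' processing notes; its version and settings, and whether arrays were scaled, are not given in the sources used here. Of 45101 probe sets, 64 controls were left out. Of the other 45037, 34945 were listed with 1 gene symbol, 932 with several, and 9160 were not listed. Intensities were transformed as log2(intensity + 16) and quantile normalized over the 22 arrays, so folds of dim probe sets are understated. Testing required an intensity over the array's 40th percentile on at least 3 of the compared arrays. Each cell group was compared with pooled lung in a limma 3.58.1 fit (R 4.3.3) of all 22 arrays with trended moderated variances, two-sided, with Benjamini-Hochberg adjustment over all tested probe sets, at 0.05 and 2-fold. Treated and untreated cells were compared on the 6 cell arrays at 0.05 alone. Precision is limited by the number of arrays.

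The members and the gene lists were chosen with earlier results of these data known. Member probe sets are all named; of each list, the called genes of largest change, up to 4 in untreated cells against lung, are named by probe set of highest mean, and for the highest-mean set of each member the 2 genes of highest correlation. Promoter and microRNA sequences are RefSeq's (GRCm38.p6). Alternatives covered normalization, offset, filter, feature, variance trend, array weights, lung grouping, left-out arrays and a replicate block. The fits were tested on simulated data. The labels do not say whether same-numbered cell arrays are pairs. Deviations of same-numbered arrays correlated at 0.038, -0.173 and -0.011, and those of differently numbered arrays at -0.134 to 0.17. With so few arrays these values cannot decide whether same-numbered arrays were prepared together.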

Additional observations from a re-analysis of the deposited data

Results flagged for a closer look

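In groups of 8 lung arrays, 1 array stood apart from its group on 7 of the 50 combinations of member probe set and lung group examined, by the gap to the nearest array over the whole range of normalized log2(intensity + 16), with a limit of 0.526. Intensities are given beside the ratios. Chance alone gives about 1 in 20. The ratio was 0.861 for Dlk1 1449939_s_at on female 1 (intensity 601, next 21.9), 0.842 for Igf2bp1 1459825_x_at on female 5 (3.76, next 0.528) and 0.638 for Igf1r 1452108_at on male 2 (376, next 295). On male 4 it was 0.624 for Igf2bp3 1422610_s_at (14.4, next 8.12), 0.609 for Igf2bp1 1449210_at (12.4, next 7.36) and 0.595 for the probe set of Mir675 and H19 (25.3, next 21.6). On female 3 it was 0.533 for Igf2bp3 1433731_at, as a low value (5.21, next 53.5). All but the Dlk1 and Igf1r values lie in the dim range of the array or, for Igf2bp3 1433731_at, fall from a measurable level into it.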

How the results depend on the processing

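Most values kept their direction and their side of the threshold. An offset of 64 gave 7988 and 7886 calls against lung (12939 and 12751 with 16), 1 and 1 members lower, and 5 calls between treated and untreated cells (3 with 16). Using 1 probe set per gene gave 5814 and 5709 calls and 4 and 4 members higher, with fewer features tested. Filtering at the 60th percentile gave 8 members higher in treated cells. Array weights gave 6 calls between treated and untreated cells and all 22 arrays in the fit gave 10. With each cell array left out in turn these calls ranged from 3 to 11 (11 without untreated 2, 8 without antibody 2, 7 without untreated 1), with 0 members. The replicate block, fitted for treated against untreated cells, gave 3 calls and 0 members. Some uncalled values changed sign: Igf1r 1426565_at in treated cells was -0.21 with no normalization, -0.002 without male 3 and 4 and -0.01 to 0.031 with arrays left out; Igf1r 1452108_at in treated cells was -0.12 (no normalization), -0.089 (offset 1), -1.61 with array weights (called lower, adjusted p = 0.00439), -0.021 and -0.027 without the lung arrays that stood apart, and -0.67 to 1.26 with arrays left out, the latter without antibody 1 (called higher, adjusted p = 0.0259). With array weights its change between treated and untreated cells was -1.17. Between treated and untreated cells, leaving out arrays gave -0.25 to 0.75, -0.26 to 0.70 and -0.25 to 0.65 for Hmga2, -0.18 to 0.27 and -0.067 to 0.32 for Igf2bp1, -0.051 to 0.18, -0.087 to 0.022 and -0.10 to 0.39 for Igf2bp3, and -0.17 to 0.057 for Mir675 and H19. Some calls of single members changed: with an offset of 64 Lin28b, 2 sets of Igf2bp1 in untreated cells and Igf1r 1428967_at in treated cells (0.91) were no longer called, the last also with no normalization (0.99); Igf2bp3 1433732_x_at was called with array weights (1.18 and 1.01), the probe set of Mir675 and H19 with an offset of 1 (1.03), and Igf1r 1452108_at in untreated cells with no normalization (-1.39) or an offset of 1 (-1.45). Dlk1 in untreated cells was 0.015 without the 3 lung arrays, by their removal alone. The cause of the other changes was not tested. The number of arrays and signal near background limit the dim probe sets.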

Other observations

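Dim member probe sets outside the tests had these values. Igf2 1415931_at read 11.8, 12.3 and 18.4 untreated and 28.2, 22.2 and 20.3 treated, with lung at 3.36 to 17.3. The treated arrays lay above the untreated ones, but the set was too dim to be tested. Afp, a fetal serum protein gene of the liver, read 160, 201 and 63.3 on lung male 3, male 4 and female 1, the arrays that are high in Dlk1, and 16.7 to 52.3 on the other lung arrays.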
